A study of Rattus norvegicus with 20 samples.

Results

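Liver mRNA of rats in the group whose dams were given 50 mg/kg per day of PBDE-47 was compared with that of the group whose dams were given 0.1 mg/kg per day. The 10 arrays were taken by their titles, 5 per dose, from the 20 of the series, and all 31042 probe sets that are not platform controls were tested. PBDE-47 is a brominated diphenyl ether, of a family of flame retardants that persist in fat. The lowest dose served here as a reference that shares no array with the vehicle group. The genes of the highest dose could thus be read against a group whose dams had also received the compound.

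Wistar Han rats (Crl:WI (Han)) arrived as timed-mated females of 11 to 12 weeks on gestation day 2. Dams were gavaged daily with 5 mL/kg of corn oil from gestation day 6 through postnatal day 4. The oil carried PBDE-47 at 10 mg/mL in the 50 mg/kg group, 3 mg/mL in the 15 mg/kg group and 0.02 mg/mL in the 0.1 mg/kg group, and none in the vehicle group. RNA came from the left lobe of the liver at postnatal day 4 and was hybridised, from 100 ng per sample, to Affymetrix 3′ arrays. Values are log2 signals summarised with RMA, so a difference of 1 is a doubling. Nothing in the labels ties the 5 arrays of a dose to different animals or litters, so each p-value rests on a spread between samples that may be technical.

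The liver clears lipophilic foreign compounds in steps. Nuclear receptors such as CAR and PXR, and the aryl hydrocarbon receptor AhR, sense them and switch on cytochrome P450 genes, whose enzymes oxidise the compound. Transferases then attach glucuronic acid or glutathione, transporters export the product, and the factor NRF2 raises enzymes that handle reactive by-products. These systems are immature in the newborn liver, and brominated diphenyl ethers are known inducers of CAR and PXR target genes in rodents.

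The arrays carried abundant liver transcripts. Albumin mRNA (Alb) read 14.77 ± 0.02 at 0.1 mg/kg and 14.78 ± 0.02 at 50 mg/kg (SD, n = 5 each), and Afp, a serum protein of the fetal and newborn liver, read 14.29 ± 0.02 and 14.31 ± 0.03. These values lie at the top of the scale, where RMA flattens differences, so they identify the tissue and do not measure how alike the groups were. Array medians over the series lay between 5.60 and 5.65. The labels call all 20 samples female, without saying whether this is the dam or the sampled animal. The Y-linked genes Eif2s3y and Uty nevertheless read 8.79 to 9.48 and 8.65 to 9.20 on all 20 arrays, and Xist, which marks the inactive X chromosome, read 3.13 to 3.62, which goes against that label. Transcripts of skeletal muscle and exocrine pancreas were present on some arrays. The mean of 21 muscle genes ranged from 4.70 to 9.27 at 0.1 mg/kg and from 4.85 to 7.36 at 50 mg/kg, and the mean of 17 pancreatic genes stood at 6.84 in 0.1 mg/kg replicate 2 against 4.40 to 4.72 on the other 4 arrays of that group. By a limit of 2 log2 units above the lowest array in either list, 4 of 5 arrays at 0.1 mg/kg and 2 of 5 at 50 mg/kg carried such transcripts.

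At 50 mg/kg, 181 probe sets were higher and 19 were lower than at 0.1 mg/kg. These 200 calls make up 0.644% of those tested, with 0.583% higher and 0.0612% lower (limma, Benjamini-Hochberg adjusted p under 0.05, 95% intervals where given). The 175 with a single gene symbol stand for 149 genes that rose and 14 that fell. A difference of at least 1.5-fold was reached by 71 rises and 10 falls. In 188 of the 200, all 5 arrays of one dose lay beyond all 5 of the other, an arrangement that 1.83% of all probe sets showed upward and 0.896% downward. Over all 31042 probe sets, 14790 differences were positive and 16252 negative, and 2760 had an unadjusted limma p under 0.05. The 0.1 mg/kg group itself gave 0 calls against vehicle with limma, where 2134 probe sets had an unadjusted p under 0.05, and the smallest adjusted p was 0.229. Leaving out 1 array at a time ended many of the weaker calls, and the total was lowest without 50 mg/kg replicate 4 (107), 0.1 mg/kg replicate 5 (112) and 50 mg/kg replicate 5 (119). The rises alone numbered 96, 97 and 99 without these arrays and 116 without 0.1 mg/kg replicate 3, and the falls 11 without 50 mg/kg replicate 4. The call survived every such omission for 90 probe sets, 81 of them higher and 9 lower. With the muscle, pancreatic and erythroid list means as covariates 130 were called. Leaving out the arrays carrying muscle or pancreas transcripts leaves 1 array at 0.1 mg/kg, which gives that group no spread of its own. All 200 kept their direction in both fits. For the 188 without overlap between the doses, leaving out arrays could not have changed it.

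The largest rises were in cytochrome P450 genes. Cyp1a1, the classical AhR target, read 7.48, 7.49, 7.49, 8.05 and 7.36 on the arrays at 0.1 mg/kg and 11.33, 10.76, 10.68, 11.34 and 11.51 at 50 mg/kg. The lowest array at 50 mg/kg thus lay well above the highest at 0.1 mg/kg, and the difference of 3.55 log2 units (SE 0.22, adjusted p = 1.74e-08) was 11.7-fold. Cyp2c7, a retinoid-oxidising P450 of rat liver, read 5.05, 4.31, 4.19, 3.96 and 4.40 at 0.1 mg/kg, near the low end of the scale. At 50 mg/kg it read 9.26, 6.94, 7.58, 8.55 and 7.41, a rise of 3.57 (SE 0.34, adjusted p = 9.67e-06) that varied by over 2 units among the treated arrays without overlap between the doses. No fold is given for genes this close to background at 0.1 mg/kg, where the log2 difference may be understated. Cyp2a3, a coumarin-hydroxylating family member, went from 5.89, 4.67, 5.76, 6.23 and 6.72 to 9.03, 8.16, 9.03, 8.71 and 9.73. Its difference was 3.08 (SE 0.40, adjusted p = 0.000294), and here too the doses did not overlap. These 3 calls held with every single array left out.

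P450s that were already abundant rose as well. Cyp2c6v1 read 12.00, 12.02, 11.88, 11.76 and 11.33 at 0.1 mg/kg and 13.88, 13.69, 13.58, 13.79 and 13.77 at 50 mg/kg, a difference of 1.94 (SE 0.13, adjusted p = 5.67e-08). Probe set 1371076_at, which the platform annotation assigns to more than one gene and which is therefore left unnamed, read 11.89 to 12.36 at 0.1 mg/kg. At 50 mg/kg its 5 arrays lay within 13.94 to 14.09, and the difference was 1.93 (SE 0.13, adjusted p = 6.55e-08). Such values approach the top of the scale, where the table ends at 14.82, so the fold of 3.80 may be understated. Cyp3a23-3a1, the PXR-responsive P450 of rat liver, rose by 1.00 (SE 0.12, adjusted p = 0.000136) from 12.62 ± 0.22 to 13.62 ± 0.03. Other P450s did not pass: Cyp3a2 differed by 0.21 (interval 0.08 to 0.33, adjusted p = 0.18) and Cyp1a2 by 0.67 (interval -0.03 to 1.37, adjusted p = 0.586).

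Of the 26 measured genes on a list of CAR and PXR targets, 14 rose and 0 fell, with a median difference of 0.74 against -0.01 for all probe sets. In 17 of the 26, all arrays at 50 mg/kg lay above all at 0.1 mg/kg, against 1.83% of all probe sets. The list mean lay between 8.61 and 8.69 on the 5 arrays at 0.1 mg/kg and between 9.30 and 9.78 at 50 mg/kg. The count was 12 or 13 with any single array left out, and 0 without the arrays carrying muscle or pancreas, where the median was 0.81. Besides P450s and the enzymes described below, the risen members included Gadd45b, a growth-arrest and DNA-damage-inducible gene that CAR activators raise in rodent liver, at 0.80 (adjusted p = 0.00144). The receptors themselves did not pass: Nr1i3, which encodes CAR, differed by -0.02 (interval -0.32 to 0.28) and Nr1i2, which encodes PXR, by 0.05 (interval -0.12 to 0.22). Ahr read 5.83, 6.29, 6.00, 6.23 and 6.15 at 0.1 mg/kg against 6.76, 6.79, 7.30, 6.28 and 6.90 at 50 mg/kg. Only 50 mg/kg replicate 4 fell inside the lower group, yet the difference of 0.71 did not pass (adjusted p = 0.138), and a weaker Ahr probe set differed by -0.03. Of all 14 genes on the xenobiotic receptor list, 0 were called by limma (3 at an unadjusted p under 0.05), and 1, Keap1, had no overlap between the doses.

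**Figure D1:**
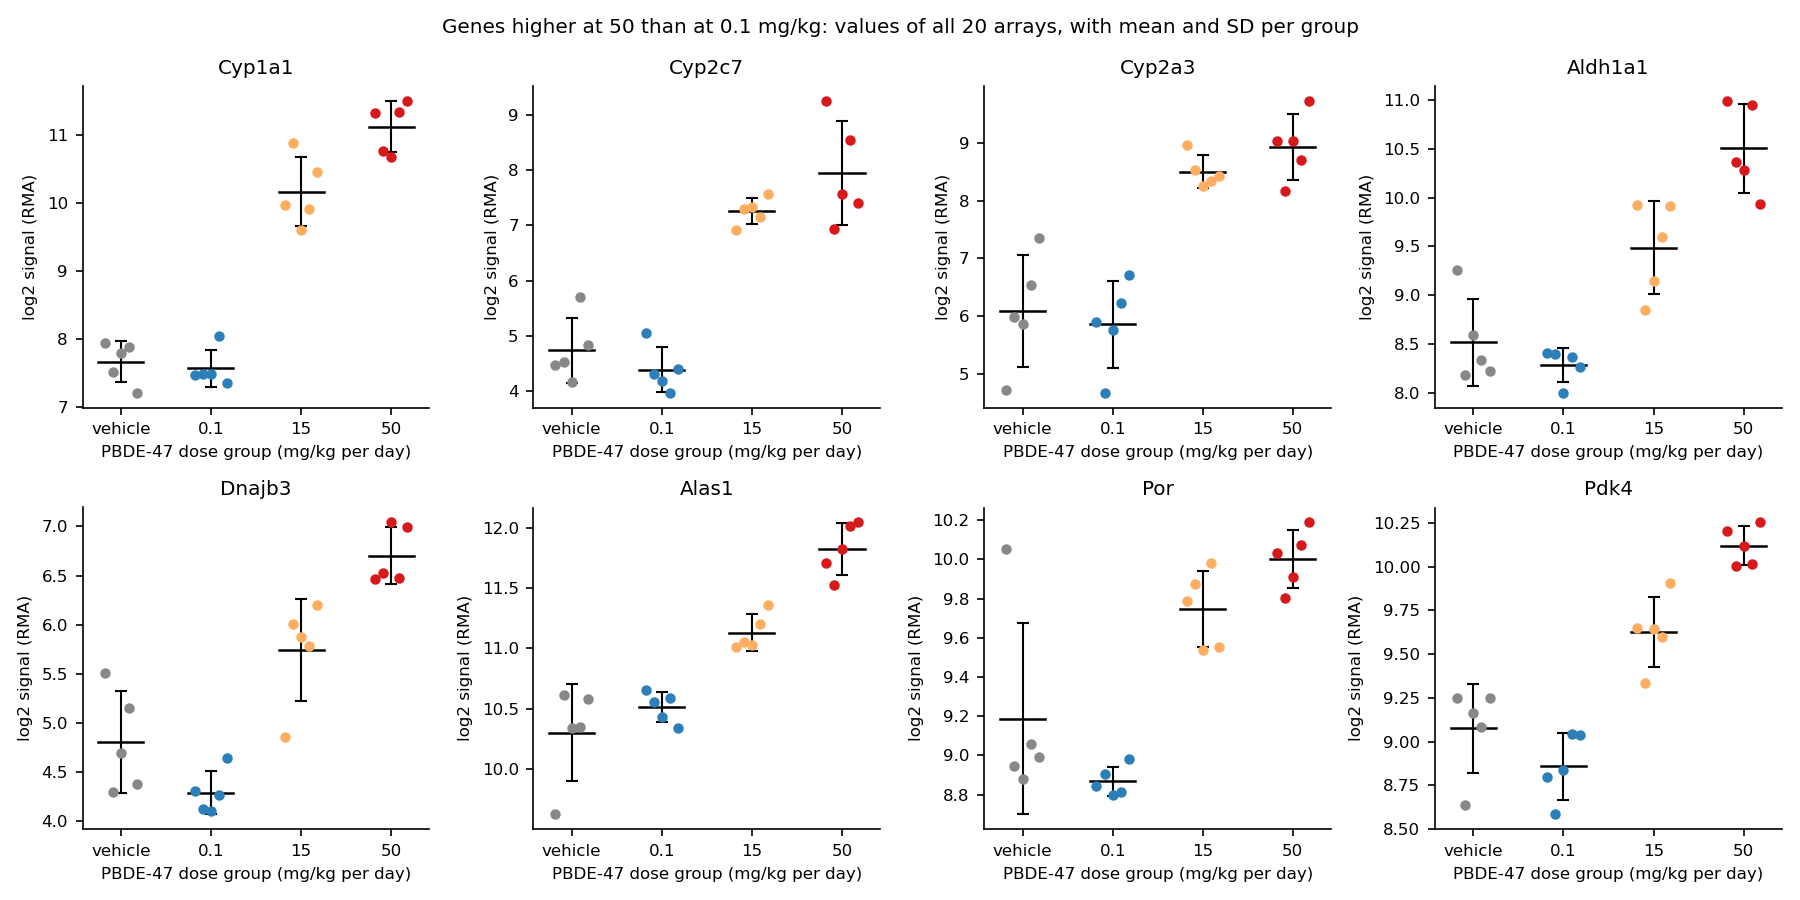
Log2 signal of 8 genes higher at 50 than at 0.1 mg/kg, on all 20 arrays by dose group (points are arrays, horizontal lines the group mean and bars the SD, n = 5). In each panel all 5 arrays at 50 mg/kg lie above all 5 at 0.1 mg/kg; Cyp1a1 goes from 7.36 to 8.05 up to 10.68 to 11.51.

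Genes that supply P450s with heme and electrons rose alongside them. Alas1, which encodes the rate-limiting enzyme of heme synthesis in liver, read 10.65, 10.56, 10.43, 10.59 and 10.34 at 0.1 mg/kg and 11.71, 11.53, 11.82, 12.01 and 12.05 at 50 mg/kg. The groups were separated by almost a full unit, and the difference was 1.31 (SE 0.15, 2.48-fold, adjusted p = 4.88e-05). Por, the reductase that passes electrons to every microsomal P450, was tight at 0.1 mg/kg, with 8.84, 8.90, 8.80, 8.81 and 8.98. It read 10.03, 9.80, 9.91, 10.08 and 10.19 at 50 mg/kg, a difference of 1.14 (SE 0.16, adjusted p = 0.000786), and its weaker probe set differed by 0.81 (adjusted p = 0.088). Cyb5a, cytochrome b5, which can donate an electron to P450s, rose by 0.33 (SE 0.05, adjusted p = 0.00486) at a level near 13. Only these 3 of the 11 genes on the heme and electron transfer list were called, with every array left out in turn. The other 8 genes, which include Alad, Urod, Cpox, Ppox and Fech of the later steps of heme synthesis, ranged from -0.15 to -0.02; none of them was called.

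Phase II enzymes rose in the glucuronidation branch. Of 8 measured genes for glucuronosyltransferases and their sugar supply, 5 rose, with a list median of 0.56. Over all 31042 probe sets, 0.583% were called higher and the median was -0.01. Ugt2b10 went from 9.50 ± 0.50 to 10.93 ± 0.33 (difference 1.43, adjusted p = 0.000803) and Ugt2b1 from 12.33 ± 0.17 to 13.29 ± 0.13 (0.96, adjusted p = 7.77e-06). Ugt2b15 read 10.48, 10.35, 10.36, 10.65 and 10.45 at 0.1 mg/kg against 11.70, 11.60, 11.42, 11.73 and 11.32 at 50 mg/kg, without overlap, and rose by 1.09 (adjusted p = 0.000121). Ugt2a1 rose by 0.76 and Ugt2b35 by 0.36. Ugt2b35 lost its call without 0.1 mg/kg replicate 5 or 50 mg/kg replicate 1, 4 or 5 (adjusted p up to 0.0682). Ugdh and Ugp2, which make the UDP-glucuronic acid these enzymes use, differed by 0.28 and -0.13 and were not called.

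Dnajb3, annotated as a heat shock protein of the DnaJ family, was among the largest rises of the comparison. It read 4.31, 4.12, 4.10, 4.26 and 4.65 at 0.1 mg/kg and 6.47, 6.52, 7.04, 6.48 and 6.99 at 50 mg/kg, a difference of 2.41 (SE 0.24, adjusted p = 9.67e-06). The doses did not overlap, and the low-dose arrays lay near background, so the difference may be understated. In the RefSeq annotation this gene lies among the Ugt1a genes, which encode glucuronosyltransferases that share their terminal exons, and whether the probe set reads Ugt1a transcripts was not tested.

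Some glutathione transferases, which attach glutathione to reactive compounds, rose as well. Of 19 measured members, 7 were called higher, 3 of them of the theta class, with a median of 0.40. The share called higher among all 31042 probe sets was 0.583%, and their median was -0.01. Gstt3 rose by 0.66 (adjusted p = 0.01) and Gstt2 by 0.58 (adjusted p = 0.00126), and both kept the call with every array left out. Gsta3, an alpha-class transferase, had all 5 arrays at 50 mg/kg above those at 0.1 mg/kg but its difference of 0.45 did not pass (adjusted p = 0.11). The other calls were sensitive to single arrays: the count fell to 2 without replicate 5 of either dose, to 3 without 0.1 mg/kg replicate 2 or 4 or 50 mg/kg replicate 4, and to 4 without 0.1 mg/kg replicate 1 or 3 or 50 mg/kg replicate 1.

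Other drug-handling enzymes gave some of the largest differences. Aldh1a1, which oxidises retinaldehyde to retinoic acid, read 8.41, 8.39, 8.0, 8.37 and 8.26 at 0.1 mg/kg and 10.99, 10.36, 10.28, 10.95 and 9.93 at 50 mg/kg. Every treated array was above every reference array, and the rise of 2.22 (SE 0.23, adjusted p = 2.27e-05) was 4.66-fold. Ces2c, a carboxylesterase, rose by 1.82 (SE 0.26, adjusted p = 0.000742), from 5.12 to 6.03 across the low-dose arrays to 6.68 to 8.02. Ephx1, microsomal epoxide hydrolase, rose by 1.25 (SE 0.12, adjusted p = 1.1e-05). Another carboxylesterase, Ces1d, differed by 1.07 with overlapping arrays and did not pass (adjusted p = 0.264). Among 18 drug transporters only Abcc3, which exports glucuronides from hepatocytes into blood, was called. It read 8.36, 8.65, 8.21, 7.95 and 8.50 at 0.1 mg/kg and 9.68, 9.52, 10.01, 9.96 and 10.14 at 50 mg/kg, a rise of 1.53 (SE 0.17, adjusted p = 4.88e-05). Abcc2, its counterpart on the bile side of the cell, differed by 0.34 (interval -0.01 to 0.68), and Slco1a4, an uptake carrier, by 0.29 (interval -0.10 to 0.69).

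Genes of the NRF2 antioxidant program were divided. Of 18 measured members of the list, 7 rose, 0 fell and 11 were not called, with a median of 0.39. Among all 31042 probe sets, 0.583% were called higher and 0.0612% lower. The list mean lay between 8.54 and 8.72 at 0.1 mg/kg and between 9.10 and 9.25 at 50 mg/kg. Of the 7 list genes that rose, Abcc3 and Ephx1 also stand on the CAR and PXR list. Me1, malic enzyme, which makes NADPH in the cytosol, read 6.73, 6.46, 6.57, 6.53 and 6.69 at 0.1 mg/kg and 7.98, 7.35, 7.35, 7.75 and 7.53 at 50 mg/kg. The groups did not overlap, the rise was 0.99 (adjusted p = 0.000316), and a separate probe set gave 1.23 (adjusted p = 0.000473). Nqo1, the quinone reductase controlled by both NRF2 and AhR, read 7.93, 7.05, 8.17, 7.86 and 8.36 against 9.33, 9.17, 8.88, 8.74 and 8.54. The lowest array at 50 mg/kg exceeded the highest at 0.1 mg/kg by under 0.2 units, and the rise of 1.06 (adjusted p = 0.0271) lost its call without 0.1 mg/kg replicate 1, 2 or 4 or 50 mg/kg replicate 1, 2, 3 or 4 (adjusted p up to 0.0852). Other textbook members did not pass: Gclm differed by 0.33, Txnrd1 by 0.32, Gclc by -0.02, Slc7a11 by -0.06 and Hmox1, heme oxygenase, by -0.14 (interval -0.40 to 0.13). The count of 7 became 3 without 0.1 mg/kg replicate 4 or 50 mg/kg replicate 3 or 4, and 4 without 0.1 mg/kg replicate 2 or 5 or 50 mg/kg replicate 1 or 5.

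Pir, which encodes the iron-binding nuclear protein pirin and is induced through NRF2 in other systems, was not on that list and was among the largest rises. It read 5.35, 5.83, 6.23, 5.86 and 5.85 at 0.1 mg/kg and 7.40, 6.78, 7.13, 7.12 and 7.18 at 50 mg/kg, without overlap, for a difference of 1.30 (SE 0.15, adjusted p = 4.88e-05). Its promoter and that of Me1 are shown because both hold the core of an antioxidant response element, TGACNNNGC, in the form TGACTCAGC, in which the core overlaps an AP-1 site. The search covered both strands of RefSeq promoter windows of the GRCr8 assembly, from 250 bases before to 50 after each start. That form occurred in 139 of 33469 windows (0.415%), in 46 of 11700 windows of genes tested here (0.393%), and in 3 of the 128 windows of genes that rose (2.34%), those of Pir, Me1 and Htatip2. Of the 16 windows of NRF2 list genes, 2 held it, those of Me1 and of Gstp1, which was not called. The looser core was no more common among the genes that rose, at 10.2% against 14.4% of the genes tested. Htatip2, a short-chain dehydrogenase-like protein named here after its match was seen, rose by 0.47 (adjusted p = 0.0398), and this call ended without any of 8 single arrays, all except replicates 3 and 5 at 0.1 mg/kg (adjusted p up to 0.116). The 250 bases before each start follow, 5′ to 3′ on the gene's strand, with the match in capitals; that of Pir reads on the opposite strand.
Pir (GRCr8 chrX:33851050-33851299, minus strand): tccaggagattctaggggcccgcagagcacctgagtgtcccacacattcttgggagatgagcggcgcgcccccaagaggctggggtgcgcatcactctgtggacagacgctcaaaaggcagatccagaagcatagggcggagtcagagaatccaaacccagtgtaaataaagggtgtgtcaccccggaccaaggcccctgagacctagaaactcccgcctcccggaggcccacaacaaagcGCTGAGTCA
Me1 (GRCr8 chr8:96540245-96540494, minus strand): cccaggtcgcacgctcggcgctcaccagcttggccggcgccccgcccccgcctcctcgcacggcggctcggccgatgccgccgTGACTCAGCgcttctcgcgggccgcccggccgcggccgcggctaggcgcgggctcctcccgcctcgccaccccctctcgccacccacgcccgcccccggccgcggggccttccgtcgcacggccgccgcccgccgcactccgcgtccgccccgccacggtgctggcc
Htatip2 (GRCr8 chr1:108609945-108610194, plus strand): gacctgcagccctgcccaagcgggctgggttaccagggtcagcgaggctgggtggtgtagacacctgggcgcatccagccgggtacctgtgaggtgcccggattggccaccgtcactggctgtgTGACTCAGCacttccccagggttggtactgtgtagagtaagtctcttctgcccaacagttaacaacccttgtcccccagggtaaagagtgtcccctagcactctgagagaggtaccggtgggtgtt

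The match in capitals lies immediately before the annotated start of Pir, 159 to 167 bases before that of Me1 and 118 to 126 bases before that of Htatip2. A match of letters is a description of the sequence and no evidence of binding.

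Subunits of the proteasome, the protease complex that degrades ubiquitin-tagged proteins, were slightly but widely higher. This set, all 36 measured Psma, Psmb, Psmc and Psmd genes, was chosen after its values were seen, so its count is a description. Of the 36, 14 were called higher, 34 had a positive difference and 21 had all arrays at 50 mg/kg above all at 0.1 mg/kg, with a median of 0.27, or 1.21-fold. Among all 31042 probe sets, 0.583% were called higher, 14790 had a positive difference and 1.83% had such separation. Psmc5, an ATPase of the regulatory particle, read 9.28, 9.31, 9.32, 9.28 and 9.35 at 0.1 mg/kg and 9.73, 9.75, 9.62, 9.62 and 9.75 at 50 mg/kg. This difference of 0.39 (SE 0.06, adjusted p = 0.00196) stands out through the small spread rather than its size, as does that of Psmc3, another such ATPase, at 0.36 (SE 0.06, adjusted p = 0.0023). Psma1, of the outer ring of the core, rose by 0.35 (adjusted p = 0.0111), and the catalytic subunit Psmb5 by 0.29 (adjusted p = 0.0243). Psmb5 lost its call without 0.1 mg/kg replicate 1, 2 or 4 or 50 mg/kg replicate 1, 2 or 5 (adjusted p up to 0.0733). The inducible immunoproteasome subunits Psmb8 and Psmb9 differed by -0.12 and -0.09 and Psmb10 by 0.14, none of them called. The mean over the 36 genes was 9.60 to 9.70 at 0.1 mg/kg and 9.86 to 9.97 at 50 mg/kg, while the vehicle arrays spanned 9.63 to 9.83. Against vehicle, 6 of the 36 were higher at 50 mg/kg, with a median of 0.17. The count of 14 fell to 7 without 0.1 mg/kg replicate 5, to 8 without 0.1 mg/kg replicate 1 or 50 mg/kg replicate 5, and to 9 without 0.1 mg/kg replicate 2 or 4 or 50 mg/kg replicate 1 or 4.

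Genes of fatty acid oxidation and PPARA, the receptor that governs it, tended upward. Of 27 measured members, 7 rose and 0 fell, 26 differences were positive and the median was 0.26. Among all 31042 probe sets, 0.583% were called higher and 14790 differences were positive. Pdk4, the kinase that shuts off pyruvate dehydrogenase and so spares glucose during fat burning, read 8.80, 8.58, 8.83, 9.05 and 9.03 at 0.1 mg/kg and 10.20, 10.00, 10.12, 10.02 and 10.25 at 50 mg/kg. The groups lay nearly 1 unit apart, and the difference was 1.26 (SE 0.12, 2.39-fold, adjusted p = 7.77e-06), with 0.52 (adjusted p = 0.00702) on a weaker probe set. Acot4, a peroxisomal acyl-CoA thioesterase, rose by 1.04 (adjusted p = 0.00904) and Cpt2, which completes the import of fatty acids into mitochondria, by 0.65 (adjusted p = 0.00904). Cyp4a1, a widely used PPARA marker, differed by 0.29 (interval -0.09 to 0.66) and Ppara itself by 0.35 (interval 0.06 to 0.64, adjusted p = 0.43), with overlapping arrays in both. The count of 7 became 3 without 0.1 mg/kg replicate 3 or 50 mg/kg replicate 4 or 5, and 4 without 0.1 mg/kg replicate 5 or 50 mg/kg replicate 1 or 3; Pdk4, Acot4 and Cpt2 kept their calls throughout.

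Cholesterol synthesis genes showed a small positive difference that no member carried past the threshold. Over all 31042 probe sets, 14790 differences were positive, and in 1.83% all arrays at 50 mg/kg lay above all at 0.1 mg/kg. Of the 19 cholesterol genes measured, 0 were called by limma (5 at an unadjusted p under 0.05). Among these genes 18 were positive, 4 had no overlap between the doses and the median was 0.33. The smallest adjusted p belonged to Sc5d, a late enzyme of the pathway, at 0.43 (adjusted p = 0.115). Lipogenic genes divided: Me1 rose, Pklr fell, and the other 18 of 20 were not called, among them Fasn at 0.04 and Thrsp, a thyroid-responsive gene, at 0.09 (interval -0.15 to 0.32).

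**Figure D2:**
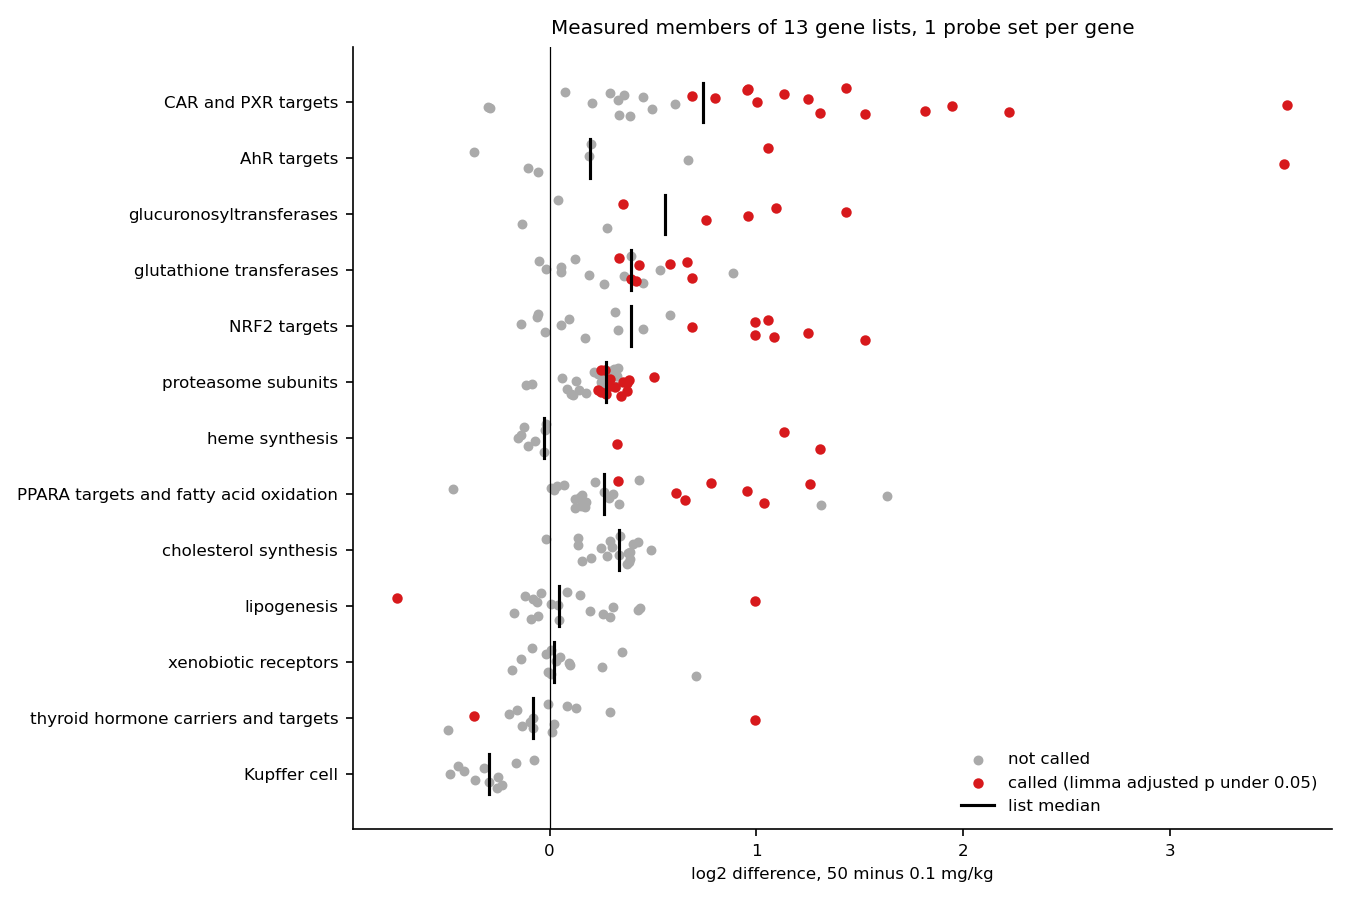
Log2 difference, 50 minus 0.1 mg/kg, of each measured member of 13 gene lists (points are genes, 1 probe set each, red where called, vertical bars the list median). The CAR and PXR list has its median at 0.74 and 14 of 26 members called, while all 11 Kupffer cell genes lie below 0 and none is called.

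Several rises lay outside these groups. Ddc, the decarboxylase that makes dopamine and serotonin from their precursors, read 8.98, 8.99, 8.92, 8.86 and 8.05 at 0.1 mg/kg and 10.35, 9.94, 9.82, 10.22 and 10.00 at 50 mg/kg. The low-dose array at 8.05 stood apart from its group, and the difference was 1.31 (adjusted p = 0.000973), against 0.21 (adjusted p = 0.795) for a dimmer Ddc probe set. Mnd1, a meiotic recombination factor, rose by 1.47 (adjusted p = 1.66e-05), from 7.42 to 8.0 across the low-dose arrays to 8.84 to 9.54. Mmgt1, a small membrane protein annotated as a magnesium transporter, rose by 1.26 and 1.23 on its pair of probe sets (adjusted p = 1.66e-05 and 9.67e-06). Stbd1, which tethers glycogen to membranes, rose by 0.96 (adjusted p = 0.000582). Of the probe sets without a gene name here, 1394128_at rose by 1.65 from 3.73 ± 0.27, close to background, and 1380962_at by 1.64 from 4.80 ± 0.30.

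Far fewer genes fell, and by less. The largest fall was of Rasd2, a small GTPase of the Ras family, which read 6.27, 5.51, 5.94, 5.61 and 6.17 at 0.1 mg/kg and 4.42, 4.73, 4.57, 4.35 and 5.32 at 50 mg/kg. Replicate 5 at 50 mg/kg came within 0.2 units of the lower group, without overlap, and the difference was -1.22 (SE 0.22, adjusted p = 0.00757). The other Rasd2 probe set differed by -0.16 (adjusted p = 0.734), so the probe sets of this gene disagree. Pklr, the pyruvate kinase of liver and a target of glucose and insulin signalling, fell on both of its probe sets. The one with the stronger test read 8.10, 8.02, 8.06, 8.07 and 7.71 at 0.1 mg/kg and 6.90, 7.39, 7.07, 7.31 and 7.41 at 50 mg/kg, a difference of -0.77 (SE 0.11, adjusted p = 0.0012), and the other gave -0.74 (adjusted p = 0.00746). Plaat3, a phospholipase and acyltransferase, fell from 10.98, 10.62, 11.07, 10.72 and 11.08 to 10.24, 10.04, 10.06, 10.29 and 10.48, a difference of -0.67 (adjusted p = 0.00639). In all 3 of these genes every array at 50 mg/kg lay below every array at 0.1 mg/kg.

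Rnase4 and Ang, secreted ribonucleases made by the liver, fell together. Rnase4 read 12.26, 12.24, 12.40, 12.12 and 12.48 at 0.1 mg/kg and 11.66, 11.01, 11.60, 11.46 and 11.79 at 50 mg/kg, a difference of -0.79 (SE 0.14, 1.73-fold lower, adjusted p = 0.0058), with -0.38 (adjusted p = 0.02) on a brighter probe set. Ang, angiogenin, read 11.79, 11.70, 11.80, 11.74 and 12.08 at 0.1 mg/kg and 11.32, 11.29, 11.25, 11.11 and 11.51 at 50 mg/kg. Its groups did not overlap either, and its log2 signal fell by 0.53 (SE 0.09, adjusted p = 0.00692). In rodents these neighbours are transcribed from shared promoters and differ in the exon they splice to, so the pair is not independent. In RefSeq the start of Rnase4 lies 54 bases after that of Ang on the same strand, and the 250 bases before the Ang start, which precede both, are shown for that reason, with nothing in capitals.
Ang (GRCr8 chr15:26785983-26786232, plus strand): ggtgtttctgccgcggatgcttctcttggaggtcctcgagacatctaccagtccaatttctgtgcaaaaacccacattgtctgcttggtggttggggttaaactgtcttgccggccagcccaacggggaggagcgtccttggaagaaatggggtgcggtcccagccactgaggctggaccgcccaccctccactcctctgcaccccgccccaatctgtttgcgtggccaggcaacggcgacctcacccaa

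Gpld1, a phospholipase that cleaves glycosylphosphatidylinositol anchors, fell by 0.54 (adjusted p = 0.0065). Wtap, a component of the RNA methyltransferase complex for N6-methyladenosine, fell by 0.44 on 1 probe set (adjusted p = 0.00527) and differed by 0.08 on the other. The calls of Rasd2, Pklr, Plaat3, Rnase4, Ang, Gpld1 and Wtap held with any single array left out. The other 7 fallen genes were Qpct (-0.77), Atp8b4 (-0.76), Plekha1 (-0.66), Itgam (-0.66), Rnf144b (-0.40), Serpina7 (-0.37) and Naaladl1 (-0.35), and each lost its call without some array. Qpct, glutaminyl cyclase, did so without 6 of the 10, replicates 1, 4 and 5 at 0.1 mg/kg and 1, 2 and 3 at 50 mg/kg. Its adjusted p was then up to 0.0601. Atp8b4, a phospholipid flippase, did so without 8 of the 10, all except 0.1 mg/kg replicate 5 and 50 mg/kg replicate 3 (adjusted p up to 0.117). Without 50 mg/kg replicate 4 the calls of Plekha1, Itgam, Rnf144b and Naaladl1 ended, with adjusted p = 0.0602, 0.0601, 0.056 and 0.0611. Itgam, an integrin of myeloid cells, and Plekha1 also lost theirs without 0.1 mg/kg replicate 5, Plekha1 without 50 mg/kg replicate 5, Rnf144b without 0.1 mg/kg replicate 4, and Naaladl1 without 0.1 mg/kg replicate 2 or 5. Serpina7 is described with the thyroid genes.

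**Figure D3:**
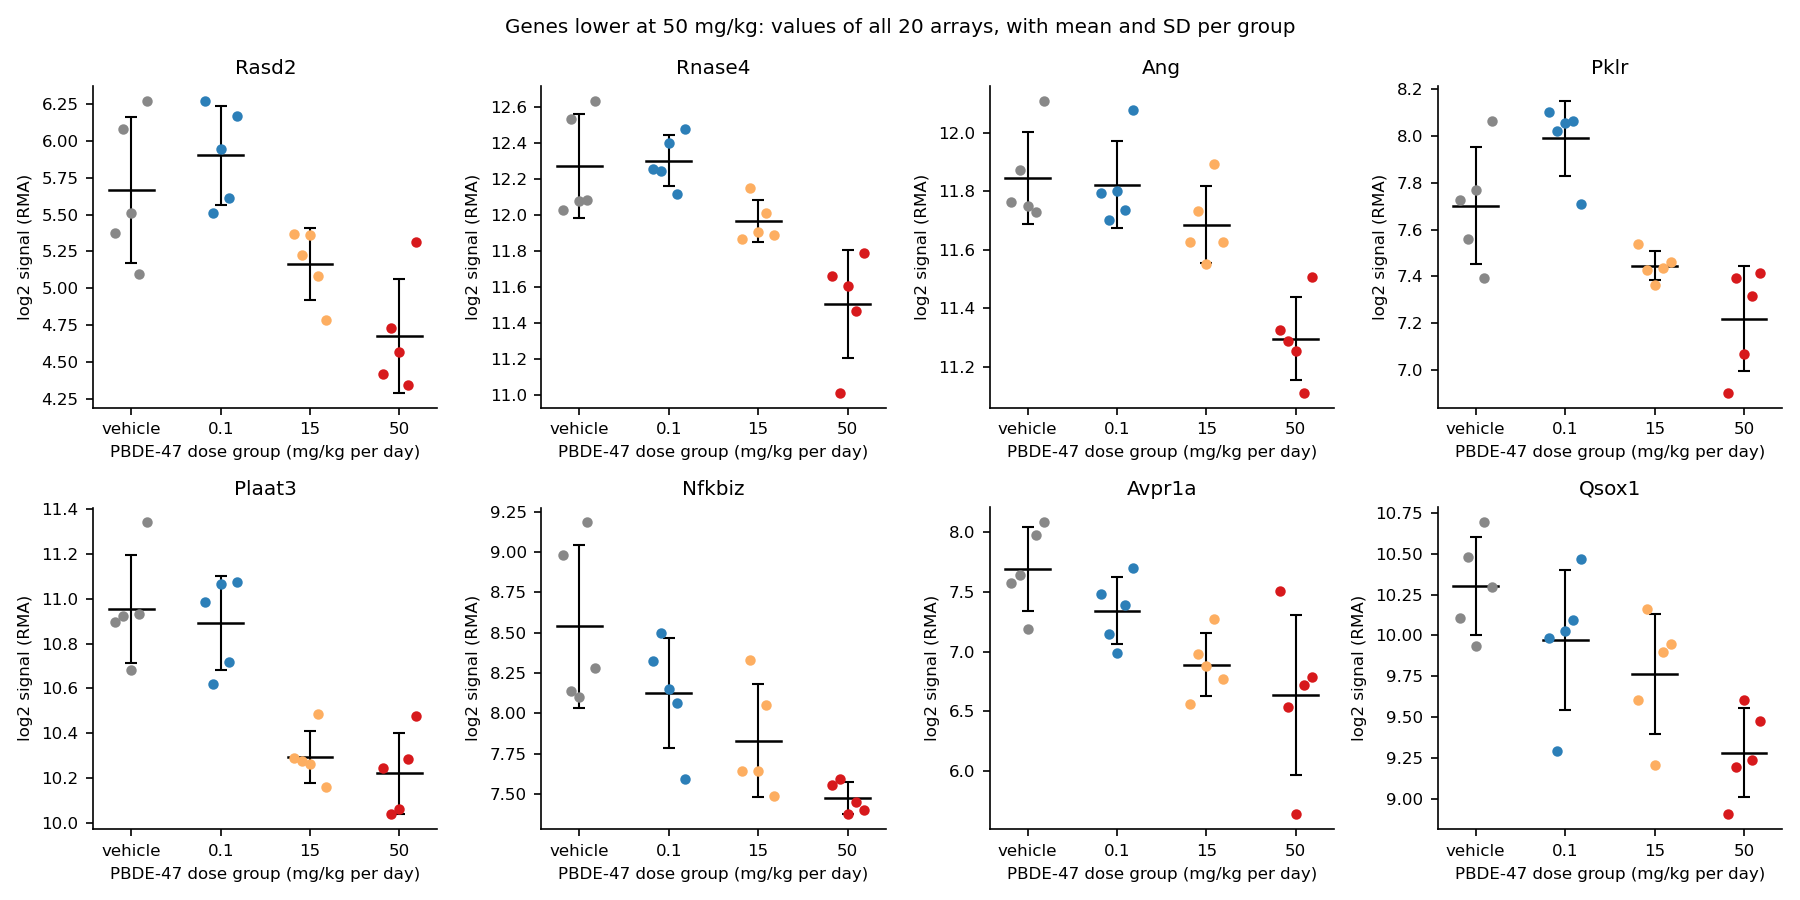
Log2 signal of 8 genes on all 20 arrays by dose group (points are arrays, horizontal lines the group mean and bars the SD, n = 5). Rasd2, Rnase4, Ang, Pklr and Plaat3 were called lower at 50 than at 0.1 mg/kg, whereas for Nfkbiz, Avpr1a and Qsox1, called against vehicle only, the 0.1 mg/kg mean lies between the vehicle and 50 mg/kg means.

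More probe sets were called lower against vehicle than against 0.1 mg/kg. Against vehicle, 50 mg/kg gave 182 probe sets higher (0.586%) and 108 lower (0.348%), 0.934% in all, against 181 and 19 with the 0.1 mg/kg reference; both comparisons share the 5 arrays at 50 mg/kg. These are counts past the threshold, so a probe set called lower against vehicle alone may still be negative against 0.1 mg/kg. The genes below, chosen after their values were seen as examples called lower against vehicle alone, were negative against both references. Nfkbiz, an inflammatory IkappaB protein, gave -1.06 against vehicle (adjusted p = 0.017) and -0.65 against 0.1 mg/kg (adjusted p = 0.235). A dimmer Nfkbiz probe set differed by -0.06 (adjusted p = 0.872) against 0.1 mg/kg, so its probe sets disagree. On the acute phase and NF-kappaB list, vehicle replicate 4 had a mean of 11.64 against 10.83 to 11.11 on the other vehicle arrays, and the part of that array in the vehicle result was not tested. Nfkbiz read 8.32, 8.50, 8.15, 8.06 and 7.59 at 0.1 mg/kg and 7.56, 7.60, 7.37, 7.45 and 7.40 at 50 mg/kg. Thus 0.1 mg/kg replicate 5 fell just inside the range of the higher dose. The vasopressin receptor gene Avpr1a gave -1.06 and -0.70 (adjusted p = 0.311 against 0.1 mg/kg), and Qsox1, which forms disulfide bonds in secreted proteins, -1.02 and -0.69. Qsox1 passed against 0.1 mg/kg when replicate 2 of that dose was left out (adjusted p = 0.0433), and its other probe set differed by -0.60 (adjusted p = 0.355). Gdf11, a growth factor of the TGF-beta family, gave -1.03 and -0.77 with no overlap between 50 and 0.1 mg/kg, yet an adjusted p of 0.157, and -0.04 against 0.1 mg/kg on a probe set near background. None of these genes differed between 0.1 mg/kg and vehicle past the threshold.

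The estimates of some rises differed between the references. Each such gap is the difference between vehicle and 0.1 mg/kg, for which limma called 0 probe sets (smallest adjusted p = 0.229). The difference against 0.1 mg/kg was above that against vehicle for Por (1.14 and 0.82), Ugt2b15 (1.09 and 0.71), Pir (1.30 and 0.96) and Nqo1 (1.06 and 0.63, the latter with adjusted p = 0.21). It was below it for Gsta3 (0.45 and 0.81, called against vehicle only) and Stbd1 (0.96 and 1.30). Meox2, a homeobox gene, read 6.37, 7.08, 6.36, 7.43 and 7.04 at 0.1 mg/kg and 8.51, 7.02, 7.58, 7.79 and 7.72 at 50 mg/kg, which overlap. It was higher at 50 mg/kg against vehicle by 1.75 (adjusted p = 0.012), and by 0.87 against 0.1 mg/kg, which did not pass (adjusted p = 0.37). The 0.1 mg/kg group stood 0.88 above vehicle for this gene, also not past the threshold.

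Genes that mark Kupffer cells, the liver's own macrophages, were all lower at 50 mg/kg without any passing. All 11 measured members had a negative difference, with a median of -0.29, and limma called 0 of them against 0.1 mg/kg (6 at an unadjusted p under 0.05) and 4 against vehicle. Of all 31042 probe sets, 16252 had a negative difference against 0.1 mg/kg and 2760 an unadjusted limma p under 0.05. C1qc, a chain of complement C1q that these macrophages secrete, read 9.39, 9.28, 9.46, 9.23 and 9.99 at 0.1 mg/kg and 9.16, 9.18, 9.18, 8.90 and 9.14 at 50 mg/kg. Its groups did not overlap, though by less than 0.1 units, and the difference of -0.36 did not pass (adjusted p = 0.304). Cd68, a lysosomal protein of macrophages, differed by -0.41 (adjusted p = 0.0754, and 0.0433 without 0.1 mg/kg replicate 2, where it passed), and Csf1r, their growth factor receptor, by -0.45 (adjusted p = 0.135). The list mean was 8.93 to 9.40 at 0.1 mg/kg and 8.70 to 9.10 at 50 mg/kg, which overlap. In a piece of tissue, fewer cells of a type and less RNA per cell cannot be told apart. Lists for other cells also leaned downward with 0 calls by limma: all 18 erythroid genes (median -0.18, 0 at an unadjusted p under 0.05) and all 5 neutrophil genes (median -0.45, 2 at an unadjusted p under 0.05) were negative.

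**Figure D4:**
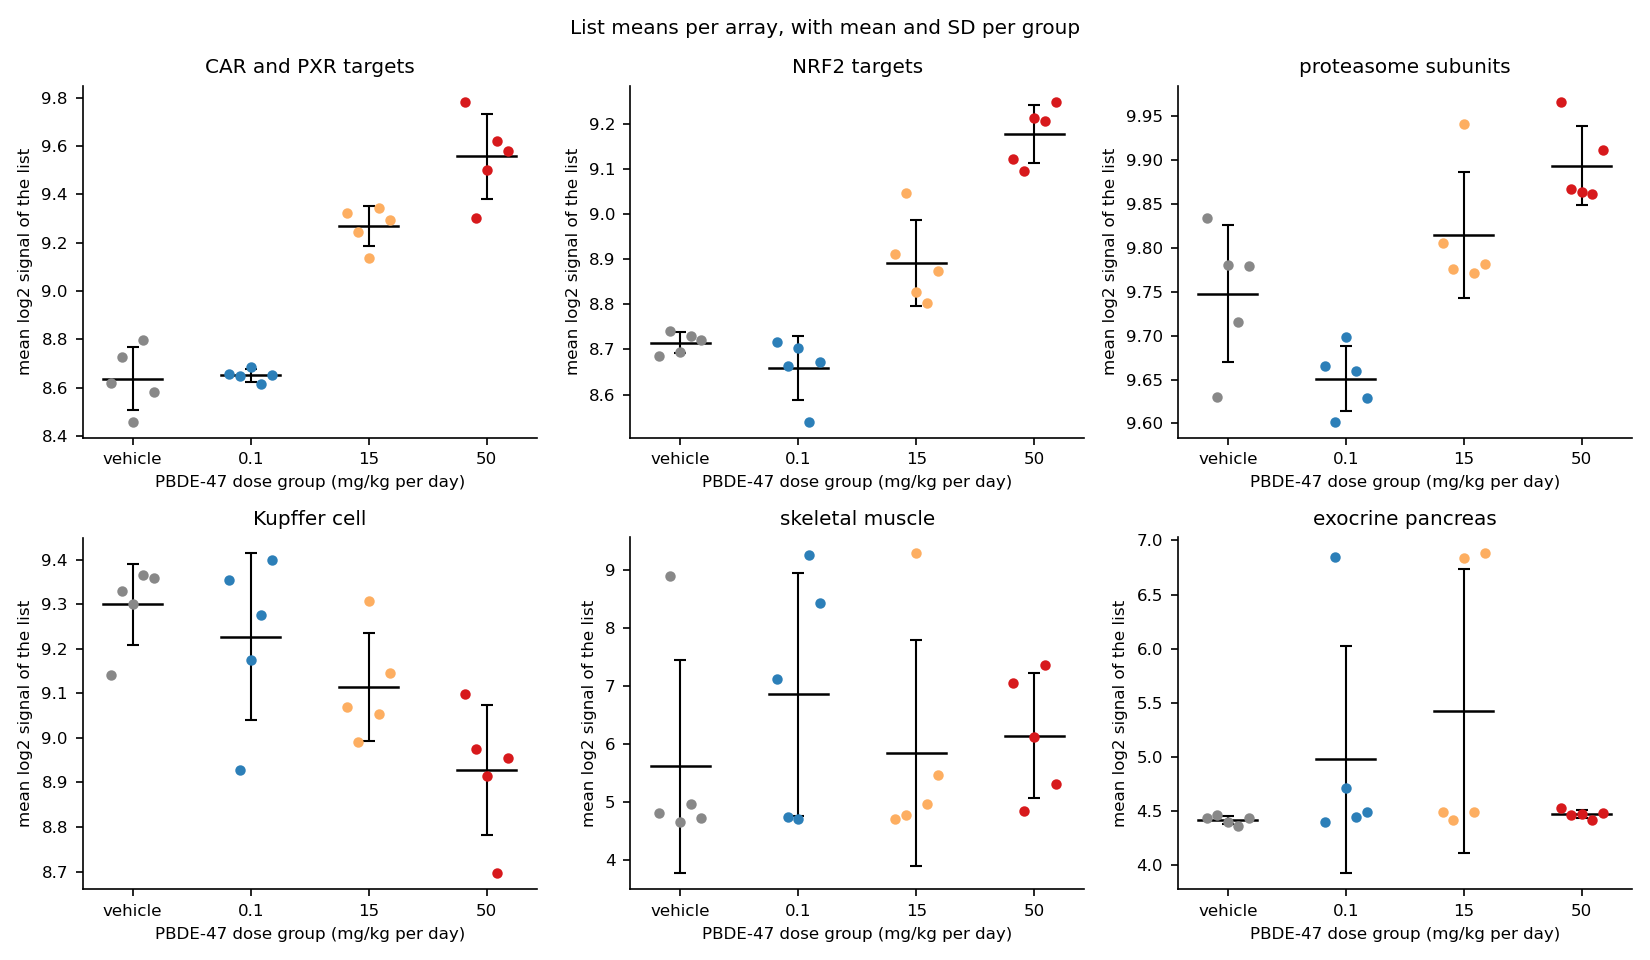
Mean log2 signal of 6 gene lists on each of the 20 arrays by dose group (points are arrays, horizontal lines the group mean and bars the SD, n = 5). The CAR and PXR, NRF2 and proteasome means at 50 mg/kg lie above all arrays at 0.1 mg/kg, the Kupffer cell means overlap, and the muscle mean ranges from 4.70 to 9.27 at 0.1 mg/kg.

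Brominated diphenyl ethers are studied for effects on thyroid hormone, and that list gave little. Of 15 measured carriers, deiodinases and targets, Me1 rose and Serpina7 fell. Serpina7, thyroxine-binding globulin, read 12.20, 12.21, 12.00, 12.25 and 12.28 at 0.1 mg/kg and 12.08, 11.78, 11.83, 11.80 and 11.60 at 50 mg/kg. The arrays overlap, and its difference of -0.37 (interval -0.54 to -0.19, adjusted p = 0.0485) was just past the threshold; it lost the call without replicate 1, 2, 4 or 5 at 0.1 mg/kg or 2, 3, 4 or 5 at 50 mg/kg (adjusted p up to 0.148). Dio1, which converts thyroxine to its active form, differed by -0.49 (interval -0.94 to -0.05, adjusted p = 0.486). Cyp7a1, which starts bile acid synthesis from cholesterol, differed by -0.24 (interval -0.73 to 0.24).

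The remaining 10 arrays of the series, 15 mg/kg against vehicle, share no array with this comparison. Each pair of groups was therefore also fitted on its own 10 arrays. That gave 142 calls at 50 against 0.1 mg/kg (0.457%), of which 124 were higher (0.399%) and 18 lower (0.058%), and 11 at 15 mg/kg against vehicle (0.0354%, all higher). Of those 11, 10 were called in both, which is 90.9% of the 11 and 7.04% of the 142. They were Cyp1a1, Cyp2c7, Cyp2c6v1, 1371076_at, 1380962_at, Ugt2b10, Ugt2b1, Abcc3, Stbd1 and Mmgt1. The exception was Cyp2c11, a male-typical P450 of adult rats, at 0.73 for 15 mg/kg against vehicle (adjusted p = 0.0226) and 0.62 for 50 against 0.1 mg/kg (adjusted p = 0.12 on its own 10 arrays). These fits are less stable than that of all 4 groups: the 142 became 67 to 92 without replicate 1, 3, 4 or 5 of either dose, the lowest without 50 mg/kg replicate 4, and the 11 became 7 without 15 mg/kg replicate 1 or 4 or vehicle replicate 3, and 17 without vehicle replicate 1.

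Direction carried over to most of the 200 calls. Of the 181 rises, 169 (93.4%) were also higher at 15 mg/kg than in vehicle, against 54.1% of all probe sets, and of the 19 falls, 18 (94.7%) were lower, against 45.9%. The median was 0.23 at 15 mg/kg beside 0.52 at 50 mg/kg for the rises, and -0.21 beside -0.66 for the falls. The 200 were chosen for passing at 50 against 0.1 mg/kg, which inflates their differences there and not at 15 mg/kg, so these medians do not compare the sizes at both doses. Their choice also used the spread of the vehicle and 15 mg/kg arrays. In the fit of 142 calls that used neither group, 116 of 124 rises (93.5%) and 16 of 18 falls (88.9%) kept their direction at 15 mg/kg against vehicle. Some genes were of nearly equal size: Ugt2b10 at 1.41 and 1.43, 1371076_at at 1.99 and 1.93, and Plaat3 at -0.66 and -0.67. Others were far apart: Me1 at 0.16 and 0.99, Nqo1 at 0.07 and 1.06, Gstt3 at -0.01 and 0.66, Cpt2 at 0.14 and 0.65, and Plekha1 at 0.00 and -0.66. Whether such differences of differences exceed their error was not tested. The list medians at 15 mg/kg against vehicle were 0.55 for CAR and PXR targets, 0.06 for NRF2 targets, 0.09 for PPARA targets and 0.09 for proteasome subunits, beside 0.74, 0.39, 0.26 and 0.27 at 50 against 0.1 mg/kg.

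**Figure D5:**
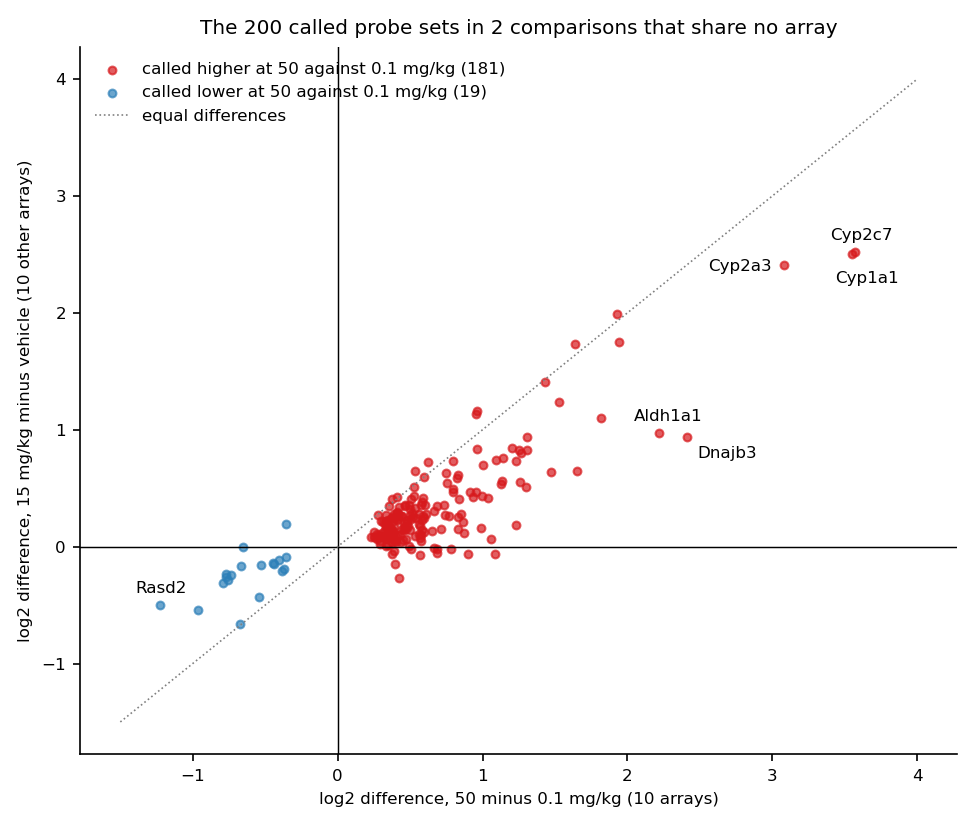
Log2 difference of the 200 called probe sets at 50 minus 0.1 mg/kg (horizontal axis) and at 15 mg/kg minus vehicle on the 10 other arrays (vertical axis), red where higher and blue where lower, with the dotted line marking equal differences. Of the 181 rises, 169 lie above 0 on the vertical axis, and of the 19 falls, 18 lie below it.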

How the data were processed

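The deposited table holds log2 signals of 31099 probe sets on 20 arrays, which the submitters' processing notes credit to RMA. Neither its version nor whether the arrays were processed jointly is given in the sources used here. The summary flattens differences between very bright and between very dim values, and folds there come out too small. Groups and replicate numbers come from the titles. Platform controls (57) were dropped, and 31042 probe sets were tested with no filter. The platform annotation names 1 gene for 20826 of them, several for 436 and none here for 9780, and 20758 single-symbol probe sets matched the RefSeq gene table of GRCr8 by gene ID.

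Group means of all 4 doses were fitted in 1 model by limma 3.58.1 (lmFit and eBayes, R 4.3.3), and the contrast of 50 minus 0.1 mg/kg was adjusted over all 31042 probe sets by Benjamini-Hochberg. Tests are two-sided, with n = 5 per group, and precision is limited by the number of arrays. The pairs 50 against 0.1 mg/kg and 15 mg/kg against vehicle were also fitted on their own 10 arrays each. Same-numbered arrays of the compared groups correlated by -0.17 to 0.25 in their deviations from the group means. The main fit did not treat them as pairs. The fit was tested on simulated data.

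For each list gene the brightest probe set assigned to that gene alone was taken, and a list is described by counts and its median without a test. The comparison, the 39 gene lists and the alternatives were chosen with earlier results of these data known, and which lists are described in full was settled after their values were seen. Genes were named by rule: the 14 largest called rises and falls, the members with the smallest p in each described list (at most 4), a fixed set of index genes, and unnamed probe sets among the 10 largest. The proteasome set and the genes called against vehicle only were chosen after their values were seen, as were list members outside the rule. Promoter windows are RefSeq's. Plots were made in Python 3.11.15 with matplotlib 3.10.9.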

Additional observations from a re-analysis of the deposited data

Results flagged for a closer look

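In 16 of 238 groups of 5 arrays examined for the named genes and lists, the highest or lowest array stood apart from the other 4 by Dixon's criterion at 95%, which chance alone meets in about 1 group in 20. Causes were not tested. At 0.1 mg/kg, replicate 5 accounted for 6 of them: it was low for Ddc (8.05, nearest array 8.86), Hnf4a (11.57, nearest 11.88) and Pklr on probe set 1387263_at (7.71, nearest 8.02), and high for 1394128_at (4.20, nearest 3.7), Cyb5a (13.05, nearest 12.96) and Ang (12.08, nearest 11.80). Elsewhere at 0.1 mg/kg, Cyp1a1 was high in replicate 4 (8.05, nearest 7.49), Abcb11, the bile salt export pump, was high in replicate 1 (11.36, nearest 11.09), Psmc3 was low in replicate 2 (10.27, nearest 10.32) and Serpina7 was low in replicate 3 (12.00, nearest 12.20). The exocrine pancreas list mean of replicate 2 was 6.84, with the nearest array at 4.72.

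At 50 mg/kg, Sc5d was high in replicate 4 (10.96, nearest 10.62), Psmb4, a core proteasome subunit, was high in replicate 2 (12.13, nearest 12.00) and Plekha1 was high in replicate 3 (9.09, nearest 8.76). Dgat1, which makes triglycerides, was low in replicate 1 (9.07, nearest 9.27) and C1qc was low in replicate 4 (8.90, nearest 9.14). Neither Cyp1a1 nor Ang changed its call without the array that stood apart, nor did Ddc, Cyb5a, Psmc3 or Pklr. Psmb4 lost its call without 50 mg/kg replicate 2.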

How the results depend on the processing

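All 200 calls kept their direction under every alternative in which they were tested. For the 188 of them without overlap between the doses, leaving out arrays could not have changed it. Against 200 called (181 higher, 19 lower), 3 were called (3 higher, 0 lower) without the arrays carrying muscle or pancreas transcripts, which leaves 1 array at 0.1 mg/kg whose spread is assumed to be that of the other groups. With muscle, pancreas and erythroid covariates 130 were called (110 higher), and at 1.5-fold or more 81 (71 higher, 10 lower). Falls numbered 31 with a mean of at least 6 and 31 with array weights. With 1 array left out, the total was 107 to 162, with 96 to 144 higher and 11 to 26 lower. The other alternatives, namely the 10 arrays alone, the leading digit of the array description as a block, repeated quantile normalization, equal medians, a mean of at least 6, an intensity trend, array weights and 1 probe set per gene, gave totals of 142 to 262.

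Of the 5 arrays at 50 mg/kg, 2 correlated best with the 0.1 mg/kg array of their own number. These few correlations cannot settle whether the replicate numbers pair the arrays. With the replicate number as a block the calls were 184 in the fit of 4 groups, 46 on the 10 arrays of 50 and 0.1 mg/kg (142 without it), 6 for 15 mg/kg against vehicle (11 without it), and 5 in both (10 without it). These 3 counts ranged over 67 to 120, 7 to 17 and 7 to 14 with 1 array left out; the cause was not tested. The contrast of 0.1 mg/kg with vehicle gave 0 to 1 calls with 1 array left out, the single calls arising without 0.1 mg/kg replicate 3 or vehicle replicate 4. Over the named genes, 1965 of 2207 values under alternatives kept their direction and side of the threshold, 226 fell short of it, 16 newly passed and 0 reversed. Dio1 and Gdf11, not called above, passed with the replicate block (adjusted p = 0.0395 and 0.0446), and Keap1 passed under 3 alternatives (adjusted p down to 0.0283). Of the list medians, 533 of 560 moved by less than the spread between arrays. Probe sets near the low end of the scale, such as 1394128_at, have little signal over background.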

Other observations

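Inflammatory genes showed a mixed picture. Crp, C-reactive protein, was the single call among 23 acute phase and NF-kappaB genes, with 10.68 at 0.1 mg/kg and 11.80 at 50 mg/kg, a rise of 1.12 (limma adjusted p = 0.0254) without overlap between the doses. It lost the call without replicate 1, 2, 3 or 4 at 0.1 mg/kg or 1, 3 or 5 at 50 mg/kg (adjusted p up to 0.0818). Fga, Fgb and Fgg, the chains of fibrinogen, differed by 0.04, 0.03 and 0.00. Cxcl1, a neutrophil chemokine, differed by -0.82 and Tnfaip3, an inhibitor of NF-kappaB, by -0.57, each without overlap between the doses and neither called (adjusted p = 0.636 and 0.128). Of the 23, 16 had a negative difference, with a median of -0.09.

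Several gene groups gave 0 calls by limma; the genes measured, their median difference and the number at an unadjusted p under 0.05 follow in that order. They were sulfotransferases (10, 0.08 and 2), bile acid synthesis and transport (16, 0.06 and 3), periportal and urea cycle genes (14, -0.03 and 3), endoplasmic reticulum stress (20, -0.02 and 0), the cell cycle (25, -0.04 and 1), the growth hormone and IGF axis (12, -0.10 and 1), the circadian clock (15, 0.01 and 1), fetal liver genes (10, -0.13 and 2) and hepatocyte markers (7, -0.03 and 0). The same held for skeletal muscle (21, -0.77 and 0), exocrine pancreas (17, -0.60 and 1), endothelial (9, -0.09 and 1), stellate and matrix (13, -0.13 and 2), cholangiocyte (6, -0.05 and 0), B cell (2, -0.04 and 0), T and NK cell (9, -0.17 and 1) and Y-linked genes (3, -0.05 and 1). Sult1c3, a sulfotransferase, had the largest difference among the sulfotransferases at 1.06 (adjusted p = 0.12). Single calls came from genes described above: Aldh1a1 of 18 retinoid genes, Ephx1 of 11 p53 targets, Ddc of 19 genes of amino acid metabolism, and, of 15 genes of glucose and glycogen metabolism, Stbd1 upward and Pklr downward. Gstm1 was the only call among 13 pericentral genes, at 0.69 (adjusted p = 0.0392), and it lost it without any single array except 50 mg/kg replicate 2. Of 8 AhR targets, Cyp1a1 and Nqo1 were called, and of 10 esterase and epoxide hydrolase genes, Ces2c and Ephx1.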
